A study of Mus musculus with 7 samples.

Results

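The 39 genes described here encode the machinery that copies DNA in S phase, from the loading of the helicase onto origins to the joining of new strands, the supply of deoxynucleotides and the packing of the copied DNA. They were taken by gene symbol from a list of names, and all 39 were found among the 55228 rows of the count table. Reads had been counted per gene in primary ovarian granulosa cells, the somatic support cells of the follicle, of C57BL/6J mice without treatment. There were 4 wild-type (WT) libraries and 3 libraries labelled as Fhl2 knockout (Fhl2 KO). The design text given to GEO speaks of only 5 samples and does not say which, and all 7 were used by their labels. The series title asks about follicle growth and fertility when FHL2, a LIM-domain cofactor, is missing. The sources used here do not give how the Fhl2 allele was made, the cells it affects, the age and cycle stage of the mice, or any pooling or time in culture. Nor do the labels say that the libraries of a group were separate animals, so the p-values below measure only the spread between these samples, which may be technical.

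Replication is prepared in G1, when the origin recognition complex (ORC), CDC6 and CDT1 load the MCM2 to MCM7 helicase onto DNA, a step called licensing. At the start of S phase MCM10, CDC45 and the GINS complex turn the loaded helicase into the active unwinding machine. DNA polymerase alpha with primase starts each strand, the sliding clamp PCNA, placed by the clamp loader RFC, holds the main polymerases on DNA, and RPA covers the exposed single strands. FEN1 and LIG1 join the Okazaki fragments, ribonucleotide reductase and the thymidylate enzymes supply precursors, and UHRF1 and the CAF-1 complex carry DNA methylation and nucleosomes over to the copies. The E2F transcription factors activate many of these genes in dividing cells. Granulosa cells divide rapidly while a follicle grows and leave the cell cycle when they turn into luteal cells after ovulation.

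Promoter windows were read to see what sequence these genes share, since E2F factors bind a short GC-rich element that many replication genes carry close to their start. RefSeq windows of 300 bases (build GRCm38.p6, 250 bases before and 50 after an annotated start) were at hand for 33 of the 39, some genes having several, and were not for Mcm4, Gins1, Gins2, Gins4, Pole and Rfc2. The letters TTTGGCGC, TTTCCCGC, TTTGCCGC or TTTCGCGC, written here as E2F-type and searched on both strands with overlaps allowed, were present for 14 of the 33 genes (42.4%). They were present for 4.65% of the 10957 tested genes that have a window, and in 2.27% of all 32841 windows. Of the 17 replication genes with a window that were lower in KO by the test described below, 10 held them (58.8%), and of the 16 that did not pass it 4 did (25.0%), a difference that was not tested. CCAAT, on either strand, was in 66.7% of the replication genes and in 42.8% of the tested genes. A match is a run of letters and no measured binding site, and a window without one says nothing about the factor.

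The 250 bases before an annotated start are printed 5′ to 3′ for 4 genes that were lower in KO and hold E2F-type letters, and for Mcm7, which holds them and did not pass the test. Capitals mark the E2F-type letters, which appear as their reverse complement where they lie on the other strand. The windows are chr4:108579204-108579453 (plus strand), chr8:75109259-75109508 (plus strand), chrX:93632156-93632405 (minus strand), chr17:56304063-56304312 (plus strand) and chr5:138171884-138172133 (minus strand). In Mcm5 a pair of matches on opposite strands overlap and give 1 longer run of capitals. Uhrf1 and Mcm7 have several windows, and those printed are ones that hold the letters. Both lie inside the gene, before an internal annotated start. The Uhrf1 window at the start of the gene (chr17:56303087-56303386) held CCAAT and no E2F-type letters.
Orc1: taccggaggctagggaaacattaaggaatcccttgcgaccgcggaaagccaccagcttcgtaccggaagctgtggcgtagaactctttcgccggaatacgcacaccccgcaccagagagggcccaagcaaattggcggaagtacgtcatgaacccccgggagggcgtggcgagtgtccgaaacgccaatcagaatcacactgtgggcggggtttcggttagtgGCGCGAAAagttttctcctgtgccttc
Mcm5: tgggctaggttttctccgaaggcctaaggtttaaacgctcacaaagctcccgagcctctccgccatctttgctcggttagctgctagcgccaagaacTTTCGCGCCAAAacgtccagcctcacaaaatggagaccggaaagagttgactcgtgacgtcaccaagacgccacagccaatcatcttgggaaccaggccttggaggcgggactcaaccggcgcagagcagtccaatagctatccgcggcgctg
Pola1: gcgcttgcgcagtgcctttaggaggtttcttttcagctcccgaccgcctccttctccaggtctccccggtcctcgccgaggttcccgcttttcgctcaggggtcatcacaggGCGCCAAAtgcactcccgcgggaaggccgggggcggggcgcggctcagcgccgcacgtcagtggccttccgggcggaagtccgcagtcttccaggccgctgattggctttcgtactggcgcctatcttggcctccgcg
Uhrf1: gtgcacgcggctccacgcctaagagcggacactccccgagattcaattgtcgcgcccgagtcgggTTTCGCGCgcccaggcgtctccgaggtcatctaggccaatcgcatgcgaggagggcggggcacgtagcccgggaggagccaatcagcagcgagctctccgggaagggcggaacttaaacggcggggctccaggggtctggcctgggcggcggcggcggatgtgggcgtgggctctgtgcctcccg
Mcm7: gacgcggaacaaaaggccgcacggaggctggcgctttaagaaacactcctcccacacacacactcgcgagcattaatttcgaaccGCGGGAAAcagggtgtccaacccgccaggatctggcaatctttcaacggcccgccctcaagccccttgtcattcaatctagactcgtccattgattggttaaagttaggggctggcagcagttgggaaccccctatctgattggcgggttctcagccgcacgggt

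**Figure D1:**
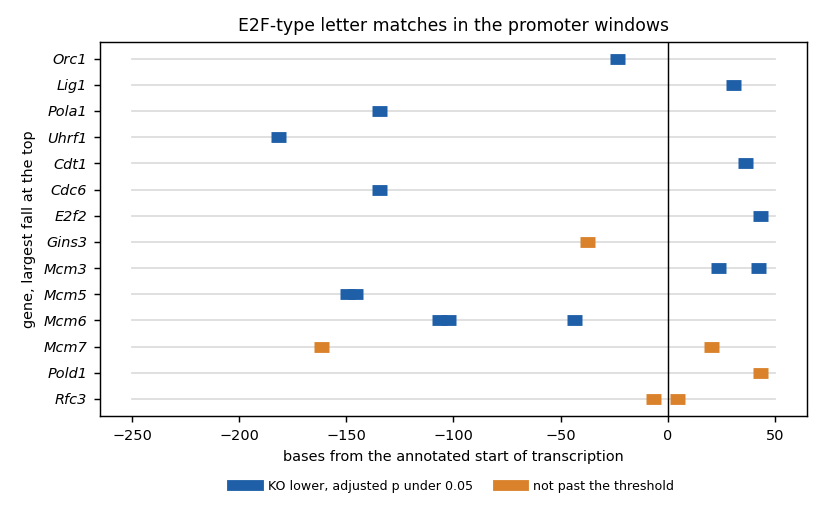
Position of E2F-type letters in the promoter windows of the 14 genes that hold them. The horizontal axis gives bases from the annotated start of transcription (linear axis), each grey line is the span of a window, blue bars are genes lower in KO with adjusted p under 0.05, orange bars genes that did not pass, and the genes are ordered by log2 fold change. Matches lie on both sides of the start, and 10 of the 14 genes are blue.

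Library totals ran from 38855596 to 50514556 counts. Levels below are in CPM, that is counts scaled to library size, here with TMM factors. Fold changes are KO over WT on the log2 scale with their standard error (SE), and libraries are written WT 1 to 4 and KO 1 to 3. Fhl2 itself was at 101, 114, 106 and 109.9 CPM in WT 1 to 4 and 47.9, 66.8 and 60.4 CPM in KO 1 to 3 (log2 fold change -0.88, SE 0.107, adjusted p = 3.29e-05). Every KO library held less Fhl2 RNA than every WT library and none was free of it. The granulosa markers Fshr, Foxl2, Inha and Amhr2 were present in all libraries, whereas Cyp19a1, the aromatase gene, had 0 counts in all 4 WT libraries and 8, 17 and 6 in KO libraries 1 to 3. Amh, a marker of small growing follicles, was low, at 1.87 ± 0.404 CPM in WT (SD, n = 4). The libraries also differed in how level depends on transcript length. For this, log2 CPM was taken relative to each gene's mean over the 7 libraries. Per doubling of length it changed by 0.0523 to 0.0746 in the WT libraries and by -0.00346, -0.140 and -0.116 in KO libraries 1 to 3. Such slopes compare libraries with each other, and their signs do not show whether level rises or falls with length within a library. Results are therefore also given after each library's trend with length and GC content was taken out, here called the corrected fit.

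Many replication genes were lower in Fhl2 KO granulosa cells, each by less than 2-fold. Of the 39, 19 fell (edgeR, adjusted p under 0.05), none rose and 20 did not pass, while over all 15798 genes tested 15.6% were called lower and 13.5% higher (29% in either direction). All 39 passed the filter on low counts. Their median log2 fold change was -0.26 against -0.00 over all genes tested, 32 of the 39 values were below 0 (7904 of 15798 over all genes), and none reached a called change of at least 2-fold, which 2.12% of the genes tested did. The falls ran from -0.26 for Cdc45, Mcm6 and Mcm5 to -0.82 for Pole. Added up, the 39 genes stood at 2774 to 2890.2 CPM in the WT libraries and 2240.4 to 2533 CPM in the KO libraries, and the KO mean was 85.2% of the WT mean. These are bulk samples, in which fewer cells in S phase and less RNA per cell cannot be told apart.

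The groups did not overlap, with KO lower, for 22 of the 39 genes, among them all 19 called (17.7% of all genes tested), and with KO higher for 1, Gins4 (16.4% of all genes tested). KO library 1 lay below all 4 WT libraries for 32 of the 39, KO library 2 for 31 and KO library 3 for 24, against 28.4%, 36.5% and 36.6% of all genes tested. KO library 2 was the lowest of the KO libraries for 16 of the 19 called genes, and KO library 1 was the highest for 12. This order was not counted over all genes tested, so it cannot be read as particular to the replication genes.

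**Figure D2:**
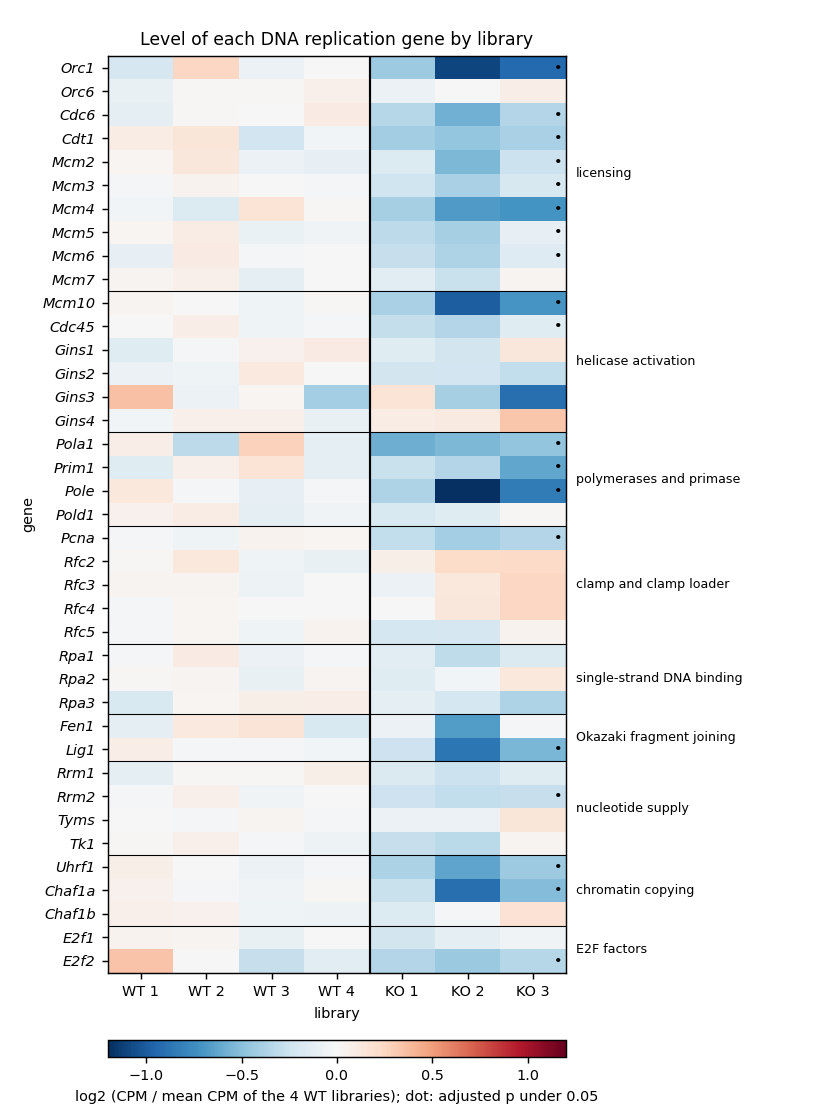
Level of the 39 replication genes in each library as log2 of CPM over the mean CPM of the 4 WT libraries, by colour (blue lower, red higher, scale from -1.2 to 1.2), with genes in rows by role and libraries in columns. Dots at the right edge mark the 19 genes with adjusted p under 0.05. KO library 2 holds the deepest blue for most of them, while Rfc2, Rfc4 and Gins4 are white to pale red in the KO libraries.

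The corrected fit gave the same median (-0.26, against 0.01 over all genes). It called 17 of the 39 lower and 1 higher, beside 10.7% and 11.8% of all genes tested. Of the 19 genes called lower before, 14 were called again. Cdc6, Mcm5, Mcm6, Pola1 and E2f2 were lost, Rpa3, Tk1 and E2f1 were added, and Rfc2 was the gene called higher. A correction for length alone called 15 lower and 1 higher, beside 9.44% and 9.67% of all genes tested. KO library 1, whose length trend lies closest to the WT libraries, gave a median of -0.22 when set alone against WT. In that setting only Uhrf1 passed (1 of 39, beside 2.97% of genes called lower), with 1 KO library that is assumed to vary like the WT libraries.

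**Figure D3:**
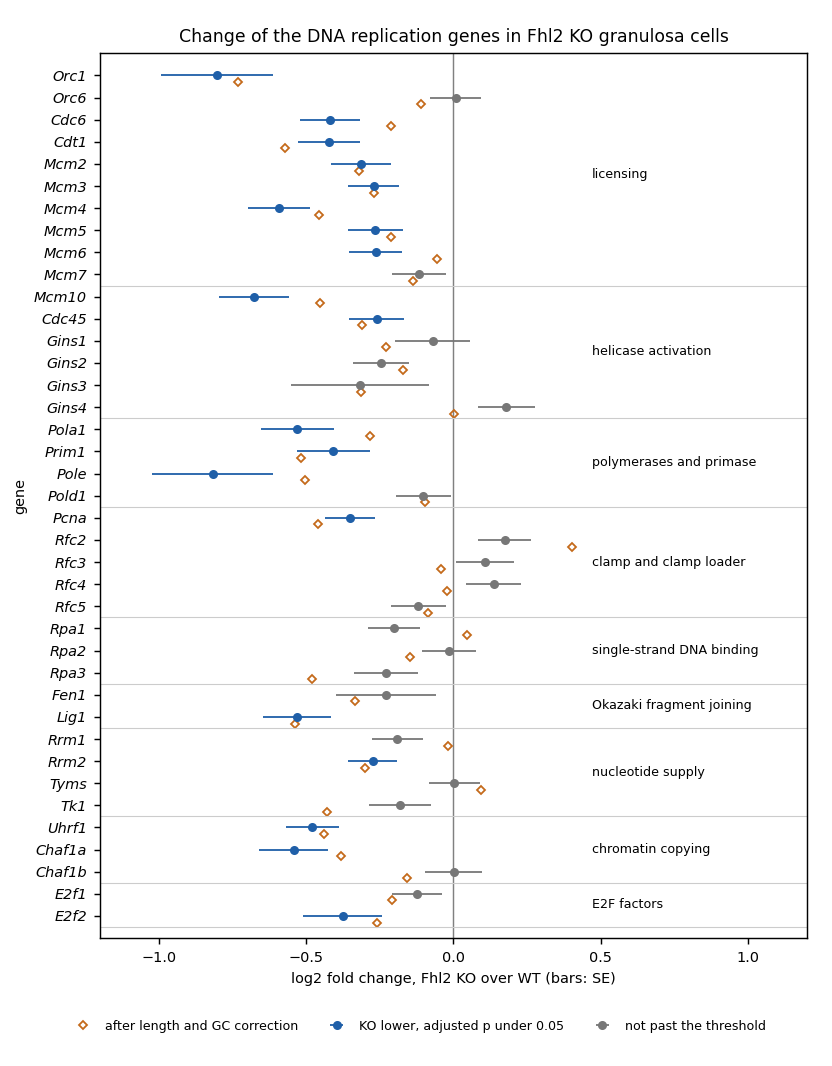
Log2 fold change of each replication gene, Fhl2 KO over WT (linear axis), with bars for the SE. Blue points passed adjusted p 0.05, grey points did not, and open orange diamonds give the value in the corrected fit. Licensing and polymerase genes other than Orc6 lie to the left of 0 and the Rfc genes on both sides of it, and the correction moves Mcm6 and Cdc6 toward 0 and Rpa3, Tk1 and Rfc2 away from it.

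Most licensing genes fell: 8 of 10 were called lower and none higher, with a median log2 fold change of -0.29 (-0.24 in the corrected fit, which called 5 of the 10; -0.30 for KO library 1 alone). Orc1, the largest ORC subunit, whose protein is regulated through the cell cycle (chr4:108579423-108614833), stood at 4.05, 5.52, 4.43 and 4.63 CPM in WT 1 to 4 and 3.44, 2.17 and 2.44 CPM in KO 1 to 3. All KO libraries were below all WT libraries, libraries 2 and 3 well below library 1 (log2 fold change -0.80, SE 0.190, adjusted p = 0.00596). These rest on few reads, 157 to 277 counts per WT library and 102 to 135 per KO library. Orc6, the smallest subunit, did not pass: it was at 63.2, 67.7, 67.7 and 70.4 CPM in WT 1 to 4 and 64.01, 67.6 and 71.3 CPM in KO 1 to 3, the groups overlapping (log2 fold change 0.01, SE 0.0870, adjusted p = 0.955; 95% interval -0.17 to 0.19).

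The helicase loaders both fell. Cdc6, the ATPase that works with ORC (chr11:98907801-98923940), was at 22.6, 24.6, 24.3 and 26.2 CPM in WT 1 to 4 and 19.3, 16.4 and 19.1 CPM in KO 1 to 3 (log2 fold change -0.42, SE 0.103, adjusted p = 0.00732). Cdt1, which brings the MCM ring to the origin (chr8:122568015-122573554), was at 28.9, 29.98, 23.2 and 26.5 CPM in WT 1 to 4 and 20.3, 19.7 and 20.8 CPM in KO 1 to 3 (log2 fold change -0.42, SE 0.105, adjusted p = 0.00804). Neither gene's groups overlapped. The corrected fit put Cdc6 at -0.21, no longer past the threshold (adjusted p = 0.0750; 0.00199 to 0.243 over all alternatives), and Cdt1 at -0.57.

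Of the 6 MCM ring genes, 5 fell, and their summed level went to 83.8% of WT (754 to 816 CPM in the WT libraries and 590.2 to 703 CPM in the KO libraries). Mcm4 fell most (chr16:15623897-15637400): it was at 49.3, 45.2, 56.6 and 51.1 CPM in WT 1 to 4 and 38.3, 31.6 and 30.8 CPM in KO 1 to 3 (log2 fold change -0.59, SE 0.107, adjusted p = 0.00112), KO library 1 lying between the WT group and the other KO libraries. Mcm2 was at 137, 148, 129 and 125 CPM in WT 1 to 4 and 120.1, 92.5 and 113 CPM in KO 1 to 3 (log2 fold change -0.31, SE 0.101, adjusted p = 0.0283). Mcm3 was at 134, 139, 135 and 133 CPM in WT 1 to 4 and 115, 103 and 118 CPM in KO 1 to 3 (log2 fold change -0.27, SE 0.0861, adjusted p = 0.0262). KO library 2 was the lowest library for both. For Mcm5 the levels were 134, 139.8, 124 and 128 CPM in WT 1 to 4 and 105, 99.3 and 123 CPM in KO 1 to 3 (log2 fold change -0.26, SE 0.0942, adjusted p = 0.0430). For Mcm6 they were 124, 141, 130.5 and 132 CPM in WT 1 to 4 and 109, 102 and 119 CPM in KO 1 to 3 (log2 fold change -0.26, SE 0.0897, adjusted p = 0.0353). None of these 5 genes' groups overlapped, although KO library 3 came close to the WT range in Mcm5 and Mcm6. Mcm7, the remaining ring subunit, was at 199, 203, 179 and 195 CPM in WT 1 to 4 and 177, 162 and 199 CPM in KO 1 to 3, with KO library 3 inside the WT range, and did not pass (log2 fold change -0.12, SE 0.0928, adjusted p = 0.368; 95% interval -0.31 to 0.08).

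Apart from Mcm4, the MCM calls were near the threshold. The Mcm2 call was lost on leaving out WT 1 or 2, or KO 2 or 3 (adjusted p of 0.0769 to 0.168; 0.00322 to 0.398 over all alternatives). That of Mcm3 was lost on leaving out WT 1, 2, 3 or 4, or KO 2 or 3 (adjusted p of 0.0521 to 0.139; 0.00610 to 0.143 over all alternatives). For Mcm5 the call was lost on leaving out WT 1, 2, 3 or 4, or KO 1 or 2 (adjusted p of 0.0560 to 0.198; 0.0350 to 0.198 over all alternatives), and for Mcm6 on leaving out WT 1, 2, 3 or 4, or KO 2 or 3 (adjusted p of 0.0505 to 0.159; 0.0233 to 0.680 over all alternatives). In the corrected fit Mcm5 was at -0.21 (adjusted p = 0.0562) and Mcm6 at -0.06 (adjusted p = 0.661), while Mcm2, Mcm3 and Mcm4 were called at -0.32, -0.27 and -0.46. The ring holds 1 copy of each subunit, and RNA levels per transcript length can be set side by side, though they do not give protein amounts. The lengths are those of the longest annotated transcript, and whether they apply in these cells was not tested. In WT, Mcm7 stood at 65.6 ± 3.49 CPM per kilobase (SD, n = 4), Mcm3 at 44.7 ± 0.900, Mcm2 at 39.9 ± 2.96, Mcm5 at 38.8 ± 2.06, Mcm6 at 30.3 ± 1.68 and Mcm4 at 14.1 ± 1.32. The WT ranges of Mcm3 and Mcm2, and of Mcm2 and Mcm5, overlapped, and those of the other neighbours in this order did not. The lowest of the 6 in WT, Mcm4, was also the one with the largest fall.

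Of the helicase activation genes, Mcm10 and Cdc45 fell, and none of the 4 GINS genes passed; the group's median was -0.25 (-0.27 corrected). Mcm10, which binds the loaded helicase and lets it start (chr2:4989714-5012791), was at 32.1, 31.6, 30.4 and 31.6 CPM in WT 1 to 4 and 23.96, 15.8 and 19.3 CPM in KO 1 to 3 (log2 fold change -0.68, SE 0.120, adjusted p = 0.00103; -0.45 corrected). Each KO library lay below the WT libraries, and KO library 2 held less Mcm10 RNA than KO library 1. Cdc45, a subunit of the active helicase, was at 35.01, 37.1, 33.9 and 34.6 CPM in WT 1 to 4 and 28.7, 27.5 and 31.7 CPM in KO 1 to 3 (log2 fold change -0.26, SE 0.0938, adjusted p = 0.0455), also without overlap. Its call was lost when any 1 of the 7 libraries was left out (adjusted p of 0.0547 to 0.180; 0.00693 to 0.180 over all alternatives), and it was called at -0.31 in the corrected fit.

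GINS is a ring of 4 different subunits, and its genes had values on both sides of 0, with a sum at 98.4% of WT (74.4 to 81.3 CPM in the WT libraries and 73.00 to 79.7 CPM in the KO libraries). Gins2 was lower in all KO libraries, at 27.4, 27.7, 31.1 and 28.6 CPM in WT 1 to 4 and 24.7, 24.5 and 23.5 CPM in KO 1 to 3, short of the threshold (log2 fold change -0.25, SE 0.0941, adjusted p = 0.0574). Gins4 was at 33.6, 35.96, 35.8 and 32.4 CPM in WT 1 to 4 and 36.6, 37.00 and 43.4 CPM in KO 1 to 3, the KO libraries all above the WT libraries (log2 fold change 0.18, SE 0.0964, adjusted p = 0.171; 0.00 corrected). Gins1 was at 8.73, 9.52, 10.01 and 10.3 CPM in WT 1 to 4 and 8.69, 8.29 and 10.6 CPM in KO 1 to 3 (log2 fold change -0.07, SE 0.127, adjusted p = 0.721), with KO libraries 1 and 2 just below the WT range and KO library 3 above it. Gins3 was the most scattered, at 5.34, 4.00, 4.28 and 3.16 CPM in WT 1 to 4 and 4.72, 3.18 and 2.24 CPM in KO 1 to 3 (log2 fold change -0.32, SE 0.233, adjusted p = 0.330). Only KO library 3 lay below the WT range. The Gins3 value was -0.09 without KO library 3 and -0.61 without KO library 1, where it was called lower (adjusted p = 0.0352; 0.0352 to 0.824 over all alternatives). Most of the exon bases of Gins2 (70.7%) are also exon of Gse1 on the opposite strand. Gse1 itself was at -0.43 (adjusted p = 0.146), and its part in the Gins2 value was not tested.

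Of the polymerase and primase genes 3 of 4 were called lower, with a median of -0.47 (-0.39 corrected; -0.32 for KO library 1 alone). Pole, the catalytic subunit of the leading-strand polymerase epsilon (chr5:110286306-110337474), was at 39.5, 36.04, 33.8 and 35.8 CPM in WT 1 to 4 and 28.1, 13.4 and 20.3 CPM in KO 1 to 3 (log2 fold change -0.82, SE 0.207, adjusted p = 0.0183). KO library 1 lay nearest the WT libraries and KO library 2 farthest below, and the Pole call was lost on leaving out KO 3 (adjusted p = 0.0873; 7.62e-11 to 0.0873 over all alternatives). Its transcript is the longest of the 39 at 7163 bases, and the corrected value was -0.51. Pola1, the catalytic subunit of polymerase alpha (chrX:93304767-93632155), was at 27.7, 21.1, 31.7 and 24.2 CPM in WT 1 to 4 and 17.5, 18.01 and 18.9 CPM in KO 1 to 3 (log2 fold change -0.53, SE 0.124, adjusted p = 0.00564). The KO libraries were close to each other here, all below the WT range. The corrected fit put Pola1 at -0.28 (adjusted p = 0.0529; 7.06e-05 to 0.0928 over all alternatives), short of the threshold.

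Prim1, the primase subunit that makes the RNA primers (chr10:128015168-128030037), has a short transcript of 1583 bases and was at 13.5, 15.6, 16.8 and 13.9 CPM in WT 1 to 4 and 12.5, 11.7 and 9.68 CPM in KO 1 to 3 (log2 fold change -0.41, SE 0.124, adjusted p = 0.0210; -0.52 corrected). Its groups did not overlap, KO library 3 being lowest, and the Prim1 call was lost on leaving out WT 2 or 3, or KO 3 (adjusted p of 0.0540 to 0.130; 0.00328 to 0.372 over all alternatives). Pold1, the catalytic subunit of polymerase delta, which copies the lagging strand, did not pass. It was at 47.2, 48.2, 42.05 and 44.3 CPM in WT 1 to 4 and 40.2, 40.96 and 45.9 CPM in KO 1 to 3 (log2 fold change -0.10, SE 0.0939, adjusted p = 0.445; 95% interval -0.30 to 0.10), KO library 3 lying inside the WT range.

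The clamp gene fell, and none of the loader genes passed. Pcna, which encodes the sliding clamp (chr2:132249162-132253314), was at 88.2, 85.9, 91.8 and 90.9 CPM in WT 1 to 4 and 72.7, 67.3 and 69.99 CPM in KO 1 to 3 (log2 fold change -0.35, SE 0.0844, adjusted p = 0.00672), the KO libraries all below the WT libraries and within a narrow band, and it was called at -0.46 in the corrected fit. A processed copy counted in its own row, Pcna-ps2, held 7.26% as many counts as Pcna, and the sources used here do not say how reads shared by such copies were counted. The loader genes Rfc2, Rfc3, Rfc4 and Rfc5 had a median of 0.12 and a summed level of 106% of WT (195 to 211 CPM in the WT libraries and 197 to 229 CPM in the KO libraries); the median over clamp and loader genes together was 0.11, and -0.04 corrected.

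Rfc2 was at 86.4, 93.2, 82.4 and 80.5 CPM in WT 1 to 4 and 89.7, 99.98 and 100.1 CPM in KO 1 to 3 (log2 fold change 0.17, SE 0.0891, adjusted p = 0.152). Rfc4 was at 35.8, 36.9, 36.5 and 36.3 CPM in WT 1 to 4 and 36.5, 40.1 and 43.3 CPM in KO 1 to 3 (log2 fold change 0.14, SE 0.0919, adjusted p = 0.284). In both, KO libraries 2 and 3 were above the WT range and KO library 1 was inside it. Rfc3 was at 28.2, 28.1, 26.3 and 27.4 CPM in WT 1 to 4 and 26.2, 30.01 and 32.7 CPM in KO 1 to 3 (log2 fold change 0.11, SE 0.0986, adjusted p = 0.438). Rfc5 was at 51.02, 52.5, 49.6 and 52.9 CPM in WT 1 to 4 and 44.4, 44.6 and 53.2 CPM in KO 1 to 3 (log2 fold change -0.12, SE 0.0937, adjusted p = 0.361). Both had KO libraries on both sides of the WT range. The corrected fit called Rfc2 higher at 0.40 (adjusted p = 0.00631; 0.00631 to 0.790 over all alternatives), and gave -0.04 for Rfc3, -0.02 for Rfc4 and -0.09 for Rfc5. That correction used a length of 4995 bases for Rfc2, far longer than its 3 relatives, which run from 1279 to 2796 bases, and 19.1% of its exon bases are also exon of Lat2 on the opposite strand. Whether that length applies to the Rfc2 RNA of these cells was not tested.

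None of the 3 subunits of RPA passed, with a median of -0.20 (-0.15 corrected). Rpa1, the large DNA-binding subunit, was at 77.8, 83.9, 75.1 and 77.6 CPM in WT 1 to 4 and 71.6, 63.8 and 69.9 CPM in KO 1 to 3 (log2 fold change -0.20, SE 0.0879, adjusted p = 0.0951); the groups did not overlap, and the corrected value was 0.05. Rpa2 was at 50.3, 50.9, 46.9 and 50.8 CPM in WT 1 to 4 and 44.9, 48.6 and 54.2 CPM in KO 1 to 3 (log2 fold change -0.01, SE 0.0929, adjusted p = 0.922; 95% interval -0.21 to 0.18). Rpa3, the smallest subunit, was at 17.4, 20.1, 20.7 and 20.8 CPM in WT 1 to 4 and 18.2, 17.1 and 15.3 CPM in KO 1 to 3 (log2 fold change -0.23, SE 0.108, adjusted p = 0.118), with KO library 1 inside the WT range. The corrected fit called Rpa3 lower at -0.48 (adjusted p = 0.0111; 0.00625 to 0.689 over all alternatives); its transcript is the shortest of the 39 at 670 bases.

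Lig1, the ligase that seals Okazaki fragments (chr7:13277283-13311433), was among the more abundant of the 39 and fell: it was at 197, 185, 184 and 182 CPM in WT 1 to 4 and 158, 103 and 128 CPM in KO 1 to 3 (log2 fold change -0.53, SE 0.116, adjusted p = 0.00407; -0.54 corrected). KO library 1 lay nearest the WT libraries and KO library 2 farthest below. Fen1, the nuclease that trims the fragments, was listed at only 5.37, 6.33, 6.502 and 5.13 CPM in WT 1 to 4 and 5.56, 3.67 and 5.75 CPM in KO 1 to 3 (log2 fold change -0.23, SE 0.170, adjusted p = 0.333). Only KO library 2 was below the WT range. Per length, Fen1 stood at 2.46 ± 0.289 CPM per kilobase in WT (SD, n = 4) and Lig1 at 58.9 ± 2.12. Of the exon bases of Fen1, 78.8% are also exon of Gm10143 on the opposite strand. Gm10143 itself held only 2, 4, 4 and 15 counts in WT 1 to 4 and 6, 1 and 7 in KO 1 to 3. Few reads were thus assigned to it. The sources used here do not say whether reads in both genes were dropped, and this was not tested. The Fen1 values, also the level per length set beside Lig1, are therefore uncertain and may be too low.

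Of the precursor supply genes 1 of 4 was called lower, with a median of -0.19 (-0.16 corrected). Rrm2, the cell-cycle-regulated small subunit of ribonucleotide reductase (chr12:24708241-24714146), fell: it was at 105, 111, 103 and 107 CPM in WT 1 to 4 and 89.5, 87.1 and 87.8 CPM in KO 1 to 3 (log2 fold change -0.27, SE 0.0825, adjusted p = 0.0203). Its groups did not overlap, and the Rrm2 call was lost on leaving out WT 1, 2 or 4, or KO 2 or 3 (adjusted p of 0.0628 to 0.0751; 0.00235 to 0.132 over all alternatives). Rrm1, the large subunit, was the most abundant of the 39, at 368, 399, 399.7 and 417 CPM in WT 1 to 4 and 349.9, 332 and 359 CPM in KO 1 to 3, and was lower in every KO library without passing (log2 fold change -0.19, SE 0.0861, adjusted p = 0.105; -0.02 corrected). Per length, Rrm1 stood at 99.1 ± 5.08 CPM per kilobase in WT (SD, n = 4). Tyms, thymidylate synthase, was at 104, 102, 106 and 103 CPM in WT 1 to 4 and 98.5, 98.4 and 114 CPM in KO 1 to 3 (log2 fold change 0.00, SE 0.0874, adjusted p = 0.984; 95% interval -0.18 to 0.19), KO library 3 being above all WT libraries and the other KO libraries below them. Tk1, thymidine kinase, was at 25.3, 26.1, 24.8 and 23.9 CPM in WT 1 to 4 and 20.7, 19.99 and 25.5 CPM in KO 1 to 3 (log2 fold change -0.18, SE 0.105, adjusted p = 0.205). The corrected fit called Tk1 lower at -0.43 (adjusted p = 0.00183; 0.00183 to 0.561 over all alternatives).

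Of the chromatin copying genes 2 of 3 fell, with a median of -0.48 (-0.38 corrected). Uhrf1, which reads hemimethylated DNA behind the fork and recruits the maintenance methyltransferase (chr17:56303321-56323486), was at 106, 101, 96.1 and 99.7 CPM in WT 1 to 4 and 77.5, 64.9 and 74.2 CPM in KO 1 to 3 (log2 fold change -0.48, SE 0.0906, adjusted p = 0.00157; -0.44 corrected). All KO libraries were well below the WT libraries, and it was the gene called in every setting, KO library 1 alone included (adjusted p of 1.79e-05 to 0.0235 over all alternatives). Chaf1a, the large subunit of CAF-1, which places nucleosomes on new DNA (chr17:56040439-56072289), was at 131, 126, 123 and 128 CPM in WT 1 to 4 and 105, 68.1 and 88.5 CPM in KO 1 to 3 (log2 fold change -0.54, SE 0.117, adjusted p = 0.00383; -0.38 corrected). KO library 2 held the lowest level again. Chaf1b, the middle subunit of the same complex, was at 60.9, 60.4, 56.1 and 55.7 CPM in WT 1 to 4 and 51.9, 57.2 and 65.7 CPM in KO 1 to 3 and did not pass (log2 fold change 0.00, SE 0.0964, adjusted p = 0.996; 95% interval -0.20 to 0.20). Ubxn6, whose exons on the opposite strand cover 33.6% of the Chaf1a exon bases, was higher in KO (0.54, adjusted p = 0.00295), at 10.9 CPM in WT against 127 CPM for Chaf1a.

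Of the E2F factors in the list, E2f2 fell and E2f1 did not pass. E2f2 was at 18.8, 14.7, 12.2 and 13.4 CPM in WT 1 to 4 and 11.6, 10.8 and 11.7 CPM in KO 1 to 3 (log2 fold change -0.38, SE 0.136, adjusted p = 0.0453); the groups did not overlap, though WT library 1 stood far above the other WT libraries. The E2f2 call was lost on leaving out WT 1, 2 or 4, or KO 1, 2 or 3 (adjusted p of 0.0574 to 0.218; 0.0204 to 0.355 over all alternatives), and the corrected value was -0.26 (adjusted p = 0.121). E2f1 was at 97.3, 97.2, 89.4 and 95.4 CPM in WT 1 to 4 and 81.7, 87.5 and 91.9 CPM in KO 1 to 3 (log2 fold change -0.12, SE 0.0861, adjusted p = 0.298), with KO library 3 inside the WT range; the corrected fit called it lower at -0.21 (adjusted p = 0.0240; 0.0240 to 0.569 over all alternatives).

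Each library was left out in turn. Called each time were 10 genes: Orc1, Cdc6, Cdt1, Mcm4, Mcm10, Pola1, Pcna, Lig1, Uhrf1 and Chaf1a. Of these, Orc1, Cdt1, Mcm4, Mcm10, Lig1, Uhrf1 and Chaf1a were called lower in all 19 alternative settings other than KO library 1 alone, 2 of which are the same fit. How many of all genes tested were called in as many settings was not counted, so these gene counts have no background beside them. The number of the 39 called lower ran from 11, without WT library 2 or without KO library 3, to 19, without KO library 1. Over all genes tested, 13.5%, 6.14% and 21.1% were called lower in those settings. It was 12 without WT library 1 and 12 without KO library 2, beside 11.3% and 10.6% of all genes. The 19 without KO library 1 were not the same genes: Mcm5, Cdc45 and E2f2 were lost, Gins2, Gins3 and Rpa1 were added, and Gins4, Rfc2 and Rfc4 were called higher.

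Log2 fold change followed transcript length in these genes as it did in the whole table. Across the 39, the Spearman correlation between them was -0.50, against -0.47 over 15574 tested genes, and 0.03 in the corrected fit; the points share the same 7 libraries. The 19 called genes had a median length of 3381 bases, the other 20 one of 2446 bases, and all tested genes one of 2881.5 bases. Set against genes of their own length, the replication genes had the lower median in 10 of 10 length bins, several of which hold few of them. In the bin of 2882 to 3426 bases, for example, the 7 replication genes had a median of -0.27 and 5 were called lower, while the median of all genes there was -0.00 and 12.97% were called lower. In the bin of 905 to 1436 bases the 4 replication genes had a median of 0.12 and all genes one of 0.25, and in that of 4905 to 6492 bases the medians were -0.37 for 4 replication genes and -0.24 for all genes.

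**Figure D4:**
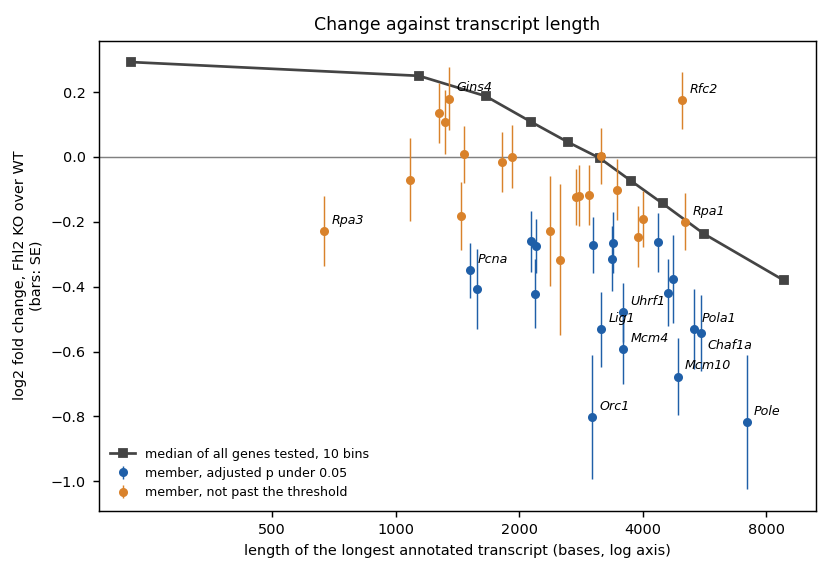
Log2 fold change of the replication genes against the length of their longest annotated transcript (log axis), with bars for the SE. Blue points passed adjusted p 0.05 and orange points did not, and the grey squares give the median of all genes tested in each of 10 length bins. Most replication genes lie below the grey line at their length, with Rfc2 well above it.

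Other genes of the same pathway were taken from lists of names and mostly moved the same way where they passed; over all genes tested, 15.6% were lower and 13.5% higher. Of 15 further origin genes, 6 fell and none rose (median -0.33, -0.26 corrected), while the corrected fit called 7 lower and 1 higher. Ticrr and Mtbp, which work together when the helicase is activated, were at -1.10, adjusted p = 0.00301, and -0.48, adjusted p = 0.00305. Topbp1, their partner and a checkpoint activator, was at -0.64, adjusted p = 8.07e-04, and Dbf4, the activator of the CDC7 kinase, at -0.43, adjusted p = 0.00587. Of 23 further fork genes, 10 fell and 1 rose (median -0.21, -0.27 corrected). Among them were the PCNA-binding Pclaf (-0.60, adjusted p = 7.99e-04), the fork protection gene Timeless (-0.63, adjusted p = 0.00127), the PCNA unloader Atad5 (-0.96, adjusted p = 0.00217) and the polymerase delta subunit Pold3 (-0.57, adjusted p = 0.00271). The gene that rose, named after its values were seen, was Pold4, the smallest polymerase delta subunit (0.53, adjusted p = 0.0196). Its call was lost on leaving out WT 3, or KO 3 (adjusted p of 0.0511 to 0.0735; 0.0131 to 0.368 over all alternatives), and the corrected value was 0.23 (adjusted p = 0.321).

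Further nucleotide synthesis genes mostly did not pass: 3 of 14 fell and none rose (median -0.10). Dck, deoxycytidine kinase of the salvage pathway, was at -0.64, adjusted p = 3.61e-04. Cad, which starts pyrimidine synthesis, was at -0.40, adjusted p = 0.0266, a call lost on leaving out WT 1 or 2, or KO 2 or 3 (adjusted p of 0.0590 to 0.129; 0.00122 to 0.644 over all alternatives), and Shmt1 of the folate cycle at -0.27, adjusted p = 0.0479, a call lost when any 1 of the 7 libraries was left out (adjusted p of 0.0628 to 0.123; 0.0414 to 0.223 over all alternatives). Samhd1, which breaks down deoxynucleotides, did not pass (-0.22, adjusted p = 0.0652). Of 8 further genes for copying chromatin, 3 fell and 1 rose. The remodeller Hells was at -0.80, adjusted p = 4.45e-05, the histone chaperone Nasp at -0.57, adjusted p = 0.00128, and Dnmt1, the maintenance methyltransferase that UHRF1 recruits, at -0.81, adjusted p = 0.0218. The Dnmt1 call was lost on leaving out KO 3 (adjusted p = 0.101; 2.22e-10 to 0.101 over all alternatives). Rbbp4, the third CAF-1 subunit and also part of other histone complexes, was the gene called higher (0.35, adjusted p = 0.0212), with groups that overlapped and a call that was lost on leaving out WT 1, 3 or 4, or KO 2 or 3 (adjusted p of 0.0532 to 0.120; 2.44e-05 to 0.908 over all alternatives). The CAF-1 subunits thus gave 1 fall (Chaf1a), 1 gene short of the threshold (Chaf1b) and 1 rise (Rbbp4).

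Before the correction, E2F regulators and S phase checkpoint genes were also lower where they passed. Of 15 further E2F, pocket protein and MuvB genes, 11 fell and none rose (median -0.40, -0.30 corrected). E2f3, an activator, was at -0.59, adjusted p = 4.83e-04, the repressors E2f7 and E2f8 at -0.88, adjusted p = 0.00149, and -0.86, adjusted p = 0.00219, and Rbl1, the pocket protein p107, at -0.61, adjusted p = 8.08e-04. The members that fell thus include activators and repressors of the same genes. Of 11 S phase checkpoint genes, 4 fell and none rose (median -0.14, -0.09 corrected), while the corrected fit called 2 lower and 1 higher. The kinase Atr was at -0.46, adjusted p = 0.00671, the clamp subunit Hus1 at -0.50, adjusted p = 0.00476, the CDK inhibitory kinase Wee1 at -0.43, adjusted p = 0.0158 and the phosphatase Cdc25a at -0.36, adjusted p = 0.00986. In the corrected fit Atr was at -0.09 (adjusted p = 0.527; 0.00144 to 0.605 over all alternatives) and Hus1 at -0.27 (adjusted p = 0.0713; 4.86e-04 to 0.132 over all alternatives). The Wee1 call was lost on leaving out WT 1, or KO 3 (adjusted p of 0.0515 to 0.0743; 0.00978 to 0.118 over all alternatives), and that of Cdc25a on leaving out KO 3 (adjusted p = 0.0722; 1.88e-04 to 0.270 over all alternatives).

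Of 17 tested cyclins, CDKs and inhibitors of G1 and S phase, 6 fell and 2 rose (median -0.14). Ccnd2, the cyclin D that FSH induces in granulosa cells, was at -0.45, adjusted p = 0.00322, the S phase cyclin Ccna2 at -0.40, adjusted p = 0.00476, Cdk6 at -0.45, adjusted p = 0.00506 and Skp2, which marks the inhibitor p27 for breakdown, at -0.54, adjusted p = 0.00140. Corrected values were -0.11 for Ccnd2 (adjusted p = 0.197; 1.86e-05 to 0.370 over all alternatives) and 0.11 for Cdk6 (adjusted p = 0.344; 3.82e-04 to 0.637 over all alternatives), so that neither was called and Cdk6 changed direction. Named after their values were seen, the risers were the kinase Cdk4 (0.27, adjusted p = 0.0453) and the inhibitor Cdkn1a, which encodes p21 (0.34, adjusted p = 0.0133). The corrected fit called 5 genes of this list lower and 0 higher, so neither riser was called higher there. The Cdk4 call was lost on leaving out WT 1, 2, 3 or 4, or KO 2 or 3 (adjusted p of 0.0549 to 0.244; 1.87e-04 to 0.913 over all alternatives) and the Cdkn1a call on leaving out KO 3 (adjusted p = 0.0645; 0.00191 to 0.155 over all alternatives).

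Mitosis genes stood lower than the replication genes. Of 25, 19 fell and none rose, with a median of -0.55 (-0.48 corrected; -0.39 for KO library 1 alone) against -0.26 for the replication genes, a difference that was not tested. The summed level was 1776 to 1959 CPM in the WT libraries and 1204 to 1389.5 CPM in the KO libraries, or 70.1% of WT against 85.2% for the replication genes. The topoisomerase Top2a, the kinesin Kif23, the spindle factor Tpx2 and the cytokinesis gene Anln were at -0.76, -0.69, -0.78 and -0.81 (adjusted p = 7.54e-05, 1.30e-04, 1.64e-04 and 4.34e-05). The mitosis genes and the replication genes were read from the same 7 libraries.

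**Figure D5:**
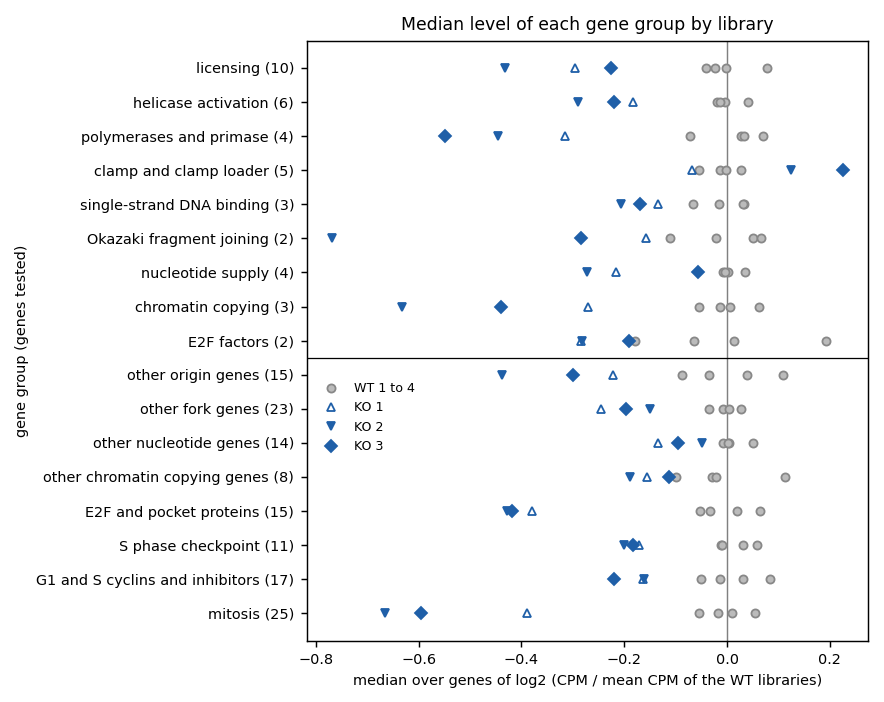
Median over the genes of each group of log2 CPM over the mean CPM of the 4 WT libraries, for each library. Grey circles are WT libraries, open triangles KO library 1, filled triangles KO library 2 and diamonds KO library 3; the role groups of the 39 genes are above the line and the other lists below, with the number of genes tested in parentheses. The KO libraries lie left of the WT libraries in most rows, with mitosis farthest left of the lists below the line, and on both sides of them for the clamp and clamp loader genes.

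Markers of other cells moved with genotype as well, and their part in the replication values was not tested. Of 13 tested granulosa markers 6 fell and 3 rose, with sums of 6601 to 7314 CPM in the WT libraries and 5873 to 6987 CPM in the KO libraries. Luteal markers rose in 7 of 9 (1292 to 1344 CPM in the WT libraries and 2774 to 3004 CPM in the KO libraries), and surface epithelium markers in 4 of 6 (109 to 125 CPM in the WT libraries and 138 to 181 CPM in the KO libraries). Stroma markers fell in 5 of 8 (365 to 423 CPM in the WT libraries and 118 to 164 CPM in the KO libraries) and muscle and pericyte markers in 4 of 7 (884 to 978 CPM in the WT libraries and 468 to 545 CPM in the KO libraries), with Rgs5 at 0 in every library. Theca markers rose in 3 and fell in 2 of 6, with sums of 6397 to 7008 CPM in the WT libraries and 8327 to 8812 CPM in the KO libraries and with Cyp17a1 and Insl3 near 0. The luteal and theca lists share a gene, so their values are not fully separate. The sums of endothelium markers (4.06 to 4.85 CPM in the WT libraries and 4.17 to 4.69 CPM in the KO libraries) and white blood cell markers (23.8 to 26.1 CPM in the WT libraries and 23.1 to 28.1 CPM in the KO libraries, with Cd3e at 0) overlapped and none of these genes passed (0 of 5 and 0 of 7). Oocyte markers fell in 1 of 8 tested (Bmp15, named after its values were seen, with adjusted p = 0.0280 and 0.0818 to 0.130 without KO library 2 or 3, where the call is lost) and summed to 3.41 to 10.2 CPM in the WT libraries and 6.10 to 12.8 CPM in the KO libraries, and red blood cell markers, with 0 of 1 tested passing and Slc4a1 at 0, to 0.339 to 0.535 CPM in the WT libraries and 0.571 to 0.790 CPM in the KO libraries. Lung markers, in 2 of 3 tested, rose from sums of 0.128 to 0.550 CPM to 1.34 to 27.8 CPM.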

How the data were processed

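RNA of the 7 libraries had been made into libraries with a stranded mRNA kit, per the labels' protocols. The deposited values were counts: whole reads per gene symbol, 1 column per library, with no normalization in the table. The submitters' processing notes name build mm10 and, without role or order, featureCounts 1.6.4, HISAT2 2.2.1, DESeq2 1.28.1, Cufflinks 2.2.1, fastp and SAMtools. The sources used here do not give the annotation release, the strand setting or the treatment of reads shared by genes. Exons of 13 of the 39 genes are also exons of a gene on the opposite strand, and reads of the pair may not be told apart. Totals of 38855596 to 50514556 counts put 3 counts at 0.0598 to 0.0775 CPM. Such floors cover counting error alone, because PCR copies cannot be removed without molecular identifiers.

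The test was the quasi-likelihood test of edgeR 4.0.16 in R 4.3.3, with genotype as its single term, after filterByExpr (minimum count 10) and TMM scaling and with robust estimation. Adjustment was by Benjamini-Hochberg over the 15798 genes tested. Every adjusted p is from this edgeR test, apart from ranges over the 20 alternatives, which also hold DESeq2 1.42.0 and limma 3.58.1 voom. SEs and 95% intervals are on the log2 scale, and the intervals are not adjusted. In the corrected fit the offsets held, per library, a spline curve against transcript length and GC content (4 degrees of freedom, genes above 1 CPM). The curve was fitted to log2 CPM relative to each gene's mean over the libraries. Lengths are those of the longest GENCODE M21 basic transcript, known for 98.6% of tested genes, and coordinates are from the same release (mm10). Other alternatives were scaling, filters, no robust estimation, each library left out, a replicate block and KO library 1 alone. The main edgeR fit was also run on simulated counts, which held no length or GC trend. The corrected fit and the other alternatives were not simulated. No library duplicated another of its group (chi-square over degrees of freedom of 9.72 or more), and no column was left unused.

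The members and lists were chosen with earlier results of these data known, so no p-value is given for a list. Named were the 39 genes, Fhl2, and up to 4 genes with the smallest p from each further pathway list. Of a cell type list, the sum, the calls and defining markers at or near 0 are given. Other names are said to be chosen after their values were seen, as were the markers Fshr, Foxl2, Inha, Amhr2 and Amh, Gse1, Ubxn6, Lat2, Gm10143 and the copies of member genes, which overlap or resemble members.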

Additional observations from a re-analysis of the deposited data

Results flagged for a closer look

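The WT libraries were examined for a library far from the other 3, in the levels of the 39 genes and in the 9 role sums. The 39 gene levels and 9 role sums gave 2 such values, no more than the rate of about 1 in 20 that chance alone gives. Rpa2 stood at 46.9 CPM in WT library 3, against 50.3 to 50.9 CPM in the other WT libraries. Lig1 stood at 197 CPM in WT library 1, against 182 to 185 CPM in the others. Rpa2 did not pass the test, and the Lig1 call held without WT library 1.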

How the results depend on the processing

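The median log2 fold change of the 39 replication genes stayed below 0 in all 20 alternatives. Counts of them called lower, each with the percentage of all genes tested that was lower in that setting, were 19 in DESeq2 (8.58%), 19 in limma voom (21.8%; beside 2 higher, Gins4 and Rfc2) and 17 with median-of-ratios size factors (15.3%). They were 15 with library totals alone (13.5%), 18 with no low-count filter (8.84%), 19 with a filter of 1 CPM in 3 libraries (19.1%) and 17 without robust estimation (15.7%). The shares in DESeq2 and with no filter are over 30038 and 30040 genes, many of low count, against 15798 in the main fit. Genes called lower numbered 2577 and 2656 there and 2460 in the main fit, so these smaller shares reflect the larger number of genes. They were 17 after the length and GC correction (10.7%) and 15 after the length correction (9.44%), each beside 1 higher, Rfc2, and 1 for KO library 1 alone (2.97%). Leaving out a library gave 11 to 19 lower (6.14% to 21.1%) and 0 to 3 higher. Over all genes, 4588 were called; there were 3019 after the length correction, 781 with KO library 1 alone and 1657 to 6740 without a library. Library totals alone moved the share of lower among called genes from 53.6% to 44.7% and the median of all genes to 0.04, and without KO library 3 that share was 60.05%. Libraries of the same number showed no shared deviation from their group means (correlations of 0.033, -0.0013 and -0.032). Whether the numbers stand for pairs is not given by the labels. With the replicate number as a block on the 6 libraries that have a partner, 12 of the 39 were called lower (13.3% of all genes) and 3301 genes in all. The same 6 libraries with no block gave 13 lower (10.8%) and 2960 genes. This is the same fit as the one without WT library 4, so the 20 alternatives and the tallies over them hold it 2 times. The block with the length and GC correction gave 16 lower (7.86%), 1 higher and 2362 genes.

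Role medians moved beyond the spread between libraries as follows. With KO library 1 alone they were -0.19 for helicase activation, -0.32 for polymerases and primase, -0.0710 for clamp and loader, -0.14 for single-strand binding and -0.27 for chromatin copying. Clamp and loader genes were at -0.0414 after the length and GC correction, -0.10 after that for length and -0.0507 with block and correction. Single-strand binding genes were at -0.15, and at -0.14 with the block, and at -0.14 without KO library 2 (range without a library -0.21 to -0.14). Helicase activation was at -0.33 after the length correction. Over the 39 genes and 20 alternatives, 619 values kept their direction and their side of the threshold, 102 lost a call, 20 gained one and 39 changed direction, all 39 of genes that did not pass. After the length and GC correction these were Orc6 (-0.11), Rfc3 (-0.0414), Rfc4 (-0.0234), Rpa1 (0.0474) and Chaf1b (-0.16). The length correction gave -0.18 for Orc6, -0.0262 for Gins4, -0.10 for Rfc3, -0.0797 for Rfc4, 0.00598 for Rpa1 and -0.13 for Chaf1b. Block and correction gave -0.10 for Orc6, -0.0308 for Gins4, -0.0507 for Rfc3, -0.0364 for Rfc4, 0.0362 for Rpa1 and -0.18 for Chaf1b. KO library 1 alone gave -0.0737 for Orc6, 0.17 for Gins3, -0.0710 for Rfc3, -0.0743 for Tyms and -0.17 for Chaf1b. Rpa2 was at 0.0375 in limma voom and 0.0246 with library totals, Chaf1b at -0.00184 with no filter, -0.0249 with the block and -0.0192 for the same 6 libraries, and Tyms at -0.00319 with the block. Without a library, Rpa2 ran from -0.0901 to 0.0669, Chaf1b from -0.0946 to 0.0971, Orc6 from -0.0319 to 0.0663, Tyms from -0.0732 to 0.0590 and Gins1 from -0.18 to 0.0103. The cause of these moves was not tested. Depth limits mainly Orc1, Gins3 and Fen1, which had 102 to 318 counts per library.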

Other observations

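Mitosis genes and replication genes held different letters in their promoter windows. TTTGAA, on either strand and part of the element that MuvB complexes bind in genes of late cell cycle phases, was present for 17 of the 22 mitosis genes that have a window (77.3%). It was present for 5 of the 33 replication genes (15.2%) and for 14.04% of the 10957 tested genes. The E2F-type letters went the other way, with 1 of 22 mitosis genes (4.55%) and 14 of 33 replication genes (42.4%). CCAAT was present for 18 of the 22 mitosis genes (81.8%), 22 of the 33 replication genes (66.7%) and 42.8% of the tested genes. TATAAA was present for 0 of the 22 mitosis genes, for 2 of the 33 replication genes (6.06%) and for 8.85% of the tested genes. Over the whole table, E2F-type letters were present for 6.46% of the 1873 genes called lower that have a window and for 3.79% of the 1585 called higher. These are letters in windows of one length and their relation to the changes in level was not tested.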
